A study of Mus musculus with 6 samples.

Results

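Nr5a1, Fezf1, Sox14, Nptx2 and Adcyap1 are markers of the ventromedial nucleus of the hypothalamus, and were followed here in arcuate hypothalamus lacking Dicer in Pomc-expressing cells. All probe sets that the array annotation gives to 1 of these gene symbols alone were taken, which made 8 of 45037 probe sets, for 5 of 18193 genes. The 6 Affymetrix Mouse Genome 430 2.0 arrays came from 3 control samples and 3 POMCDicerKO samples. In POMCDicerKO mice the microRNA-processing enzyme Dicer is deleted in cells that express Pomc, the precursor gene of the melanocortin peptides. All mice were 2 weeks old, had standard chow and were of a mixed C57Bl/6J, FVB/N and 129 background. The labels give the control genotype only as Ctrl, and do not name the Cre line or say whether controls carried Cre or floxed Dicer1. The samples were independent per the labels, which do not say how many animals went into each. Values are log2 expression after RMA, so a difference of 1 is a doubling, and differences are POMCDicerKO minus control.

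The ventromedial nucleus lies beside the arcuate nucleus and takes part in energy balance, glucose counter-regulation, defence and sexual behaviour. Most of its neurons are glutamatergic and many descend from cells that express Nr5a1, the nuclear receptor SF-1, without which the nucleus does not form normally. Deletion in Pomc-expressing cells is not aimed at these neurons, although Pomc is transiently expressed in many hypothalamic precursors during development. In tissue homogenates, fewer cells of a type and less RNA per cell cannot be told apart.

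No marker passed the test between the groups, and all of them overlapped between control and POMCDicerKO arrays. By limma, 0 of the 8 probe sets passed the adjusted threshold of 0.05 (adjusted p = 1 for each), where 0.0% of all probe sets passed. At an unadjusted p under 0.05 there were also 0 of 8, against 2.44% of all probe sets, and in 0 of 8 were the groups without overlap, against 6.36% of all probe sets. Of the main probe sets, the one of each gene with the highest mean, 3 were lower and 2 higher in POMCDicerKO, with a median of -0.034. Among all genes 55.1% were lower, with a median of -0.01. Centring each array on its median made it 4 lower and 1 higher, because Adcyap1 lay at almost no difference. Counting all 8 probe sets without centring, 6 were lower and 2 higher.

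Most of these genes read above the array medians at their main probe sets, and whether each transcript was detected was not tested. The main probe sets of 4 of the 5 genes had a mean of at least 6, near the array medians of 6.02 to 6.05, and Sox14 at 5.63 lay below it. The lesser probe sets of Nr5a1 and Nptx2, with means of 4.70 and 5.14, also lay low, where differences are compressed. Levels of different probe sets were not compared, since each set of oligonucleotides has its own response.

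Nr5a1 encodes the orphan nuclear receptor SF-1, which in the brain is restricted to the ventromedial nucleus and is the defining factor of its neurons. Probe set 1418315_at (chromosome 2) read 7.33, 7.60 and 7.62 in controls 1, 2 and 3, and 7.30, 7.53 and 7.63 in POMCDicerKO 1, 2 and 3. The first array of either group was low and the other arrays lay close together, so that the groups covered almost the same range. The means were 7.52 ± 0.163 (SD, n = 3) and 7.49 ± 0.167 (SD, n = 3), a difference of -0.034 with a standard error of 0.113 (95% interval -0.297 to 0.228, limma). The two-sided exact permutation p was 0.7. The interval corresponds to between 0.814 and 1.17 of the control level. The sign turned to 0.057 without POMCDicerKO 1. The lesser probe set, 1421730_at, ran from 4.58 to 4.86 in controls and from 4.61 to 4.81 in POMCDicerKO, a difference of -0.012, and did not repeat the low values of the first arrays.

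Fezf1, a zinc-finger transcriptional repressor needed for the development of ventromedial neurons, was the steadiest of the markers. Probe set 1429991_at (chromosome 6) read 7.46, 7.38 and 7.41 in controls and 7.51, 7.48 and 7.45 in POMCDicerKO. The lowest POMCDicerKO array lay just under the highest control, so the groups overlapped by that pair alone. The difference was 0.065 with a standard error of 0.0616 (95% interval -0.078 to 0.208, limma), and the exact permutation p was 0.2 (two-sided). It stayed above 0 with any single array left out, from 0.045 to 0.087. The within-group SD of 0.0377 was smaller than that of all but 4.6% of probe sets.

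Sox14, a SOX-family transcription factor of the B2 group found in part of the ventromedial nucleus and also in some thalamic and midbrain neurons, had 1 high control. Probe set 1427609_at (chromosome 9) read 5.59, 5.51 and 5.91 in controls and 5.50, 5.58 and 5.67 in POMCDicerKO. Controls 1 and 2 lay within the POMCDicerKO range, and control 3 above it. The difference was -0.086 with a standard error of 0.112 (95% interval -0.347 to 0.175, limma; two-sided exact permutation p = 0.6). Without control 3 it was 0.036, and without controls 1 and 2 it was -0.33, so control 3 decided its sign and size.

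Nptx2 encodes a secreted neuronal pentraxin that gathers AMPA-type glutamate receptors at excitatory synapses and is induced by neuronal activity. Probe set 1420720_at (chromosome 5) read 8.11, 8.61 and 8.49 in controls and 8.24, 8.39 and 8.25 in POMCDicerKO. The controls were spread more widely and enclosed the POMCDicerKO arrays on either side. Means were 8.40 ± 0.263 (SD, n = 3) and 8.29 ± 0.0851 (SD, n = 3), a difference of -0.108 with a standard error of 0.129 (95% interval -0.408 to 0.191, limma). The two-sided exact permutation p was 0.6. The difference ranged from -0.256 without control 1 to -0.004 without control 2. The lesser probe set, 1449960_at, ran from 5.06 to 5.38 in controls and from 5.01 to 5.13 in POMCDicerKO, a difference of -0.13 (two-sided exact permutation p = 0.3).

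Adcyap1 encodes the precursor of PACAP, a neuropeptide of ventromedial glutamatergic neurons that is also made in other hypothalamic nuclei and acts on receptors coupled to cyclic AMP. Probe set 1423427_at (chromosome 17) read 10.17, 10.11 and 10.00 in controls and 10.24, 10.09 and 9.97 in POMCDicerKO. The groups overlapped almost fully, and array 1 was the highest and array 3 the lowest in either group. The difference was 0.005 with a standard error of 0.0879 (95% interval -0.2 to 0.209, limma; two-sided exact permutation p = 1), or between 0.871 and 1.16 of the control level. Its sign is not settled, since it was -0.003 with each array centred.

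The other Adcyap1 probe set, 1441778_at, varied most of the 8. It read 7.83, 8.05 and 7.41 in controls and 7.73, 7.65 and 7.32 in POMCDicerKO, with array 3 the lowest in either group, as at 1423427_at. The highest array was control 2 here but POMCDicerKO 1 there. The difference was -0.191 with a standard error of 0.173 (95% interval -0.593 to 0.211, limma; two-sided exact permutation p = 0.4). It was -0.047 without control 2 and 0.163 without controls 1 and 2. Of all probe sets, 95.8% had a smaller within-group SD than its 0.277, against 55.3% for 1423427_at. Which transcripts the Adcyap1 probe sets read was not analysed here.

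**Figure D1:**
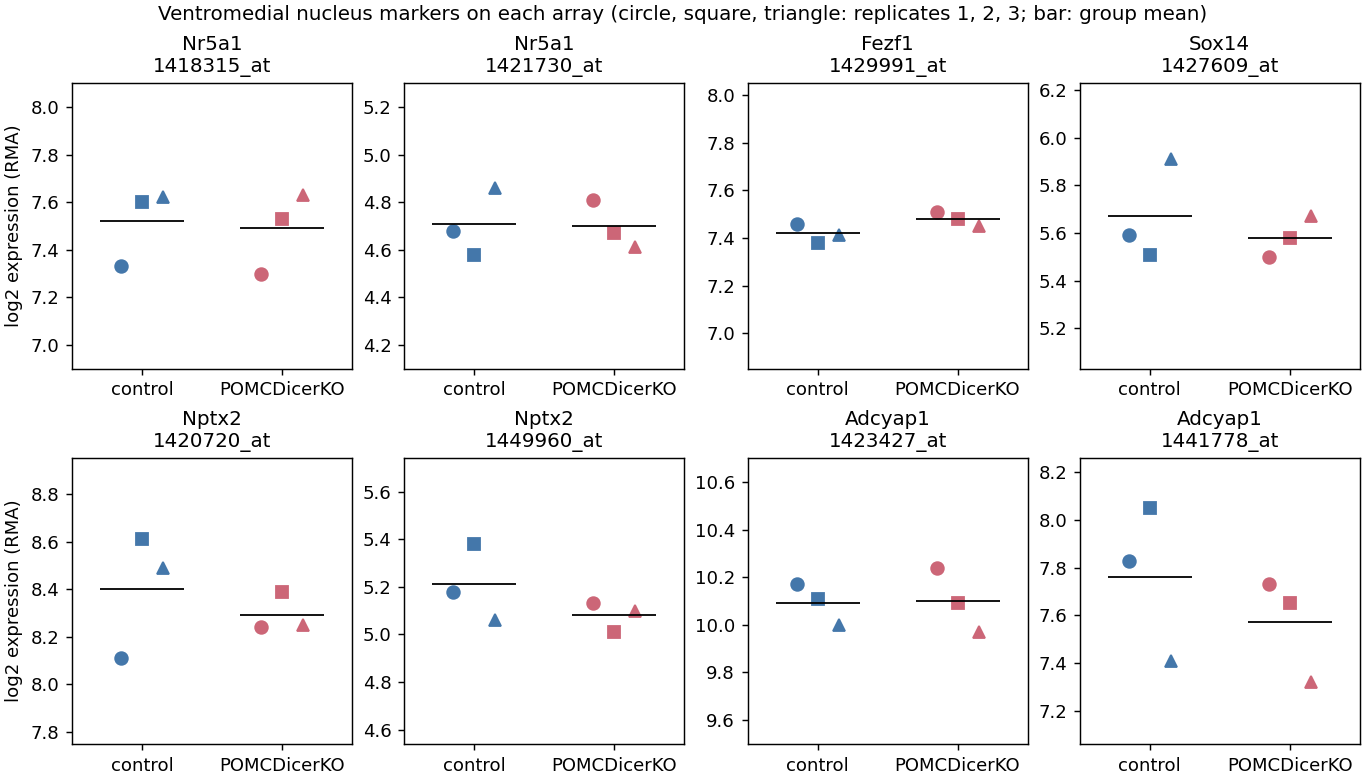
Log2 expression (vertical axes, each spanning the same number of log2 units) of the 8 probe sets on the 3 control (blue) and 3 POMCDicerKO (red) arrays, with circles, squares and triangles for replicates 1, 2 and 3 and a bar at each group mean. The groups overlap in all 8 panels, and Sox14 has 1 high control at 5.91.

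**Figure D2:**
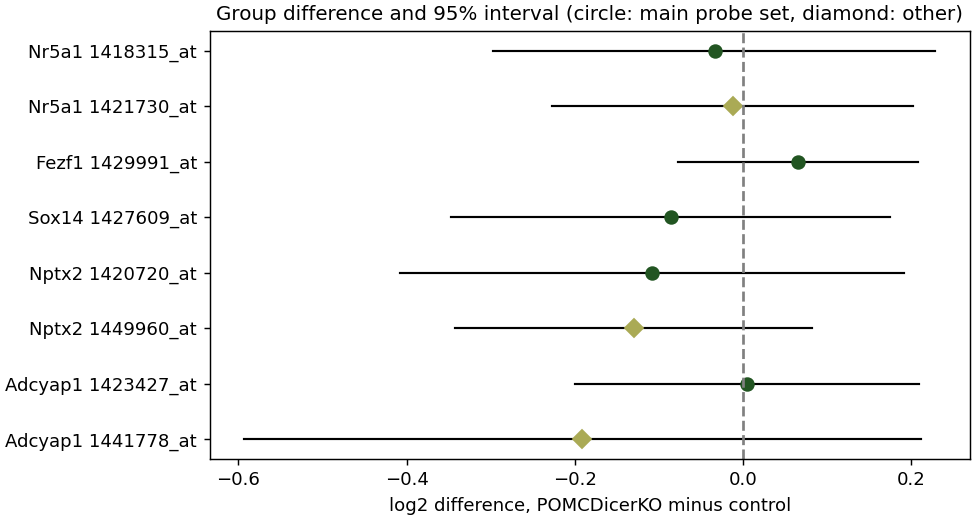
Difference of the group means on the log2 scale (horizontal axis, POMCDicerKO minus control) with limma's 95% interval for each probe set, circles for main probe sets and diamonds for the others. All 8 intervals include 0, and the narrowest is that of Fezf1, from -0.078 to 0.208.

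The markers did not move as 1 block from array to array. Relative to its control mean, Nr5a1 stood at -0.19 on control 1 and -0.22 on POMCDicerKO 1, where the main probe set of Adcyap1 stood at 0.07 and 0.14. On control 3 and POMCDicerKO 3 Nr5a1 was at 0.11 and 0.11, and Adcyap1 at -0.09 and -0.13. Nptx2 was low with Nr5a1 on those first arrays, at -0.30 and -0.17, but also at -0.15 on POMCDicerKO 3, where Nr5a1 was high. Averaged over the 5 genes, controls stood at -0.09, 0.02 and 0.07 and POMCDicerKO arrays at -0.06, -0.01 and -0.03, within the control range. These array differences are descriptions with no test.

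Several lists of neighbouring nuclei varied more widely over the same arrays. The range from the lowest to the highest array had a median of 0.326 over the 5 markers and reached 0.505 (Nptx2), where the median over all genes was 0.26. The median range was 0.608 for 10 arcuate genes, 0.684 for 6 dorsomedial genes, 1.65 for 5 paraventricular and supraoptic genes and 2.32 for 3 lateral hypothalamic genes. It was 0.464 for 4 suprachiasmatic genes and 0.33 for 5 thalamic genes. For 18 other genes known from ventromedial neurons, described below, the median range was 0.32 and the highest 0.909 (Esr1). The 4 mammillary genes, none with a mean of at least 6, had 0.214. Hcrt, the orexin precursor of the lateral hypothalamus, read 8.60, 7.78 and 9.48 in controls and 10.72, 8.20 and 8.62 in POMCDicerKO, a range of 2.94. Crh, the corticotropin-releasing hormone gene of the paraventricular nucleus, had a range of 2.66, and Npvf, the RFamide peptide gene of the dorsomedial nucleus, 1.94. The lists differ in the kind of gene they hold, since neuropeptide transcripts are abundant in few cells, and the difference in spread was not tested.

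**Figure D3:**
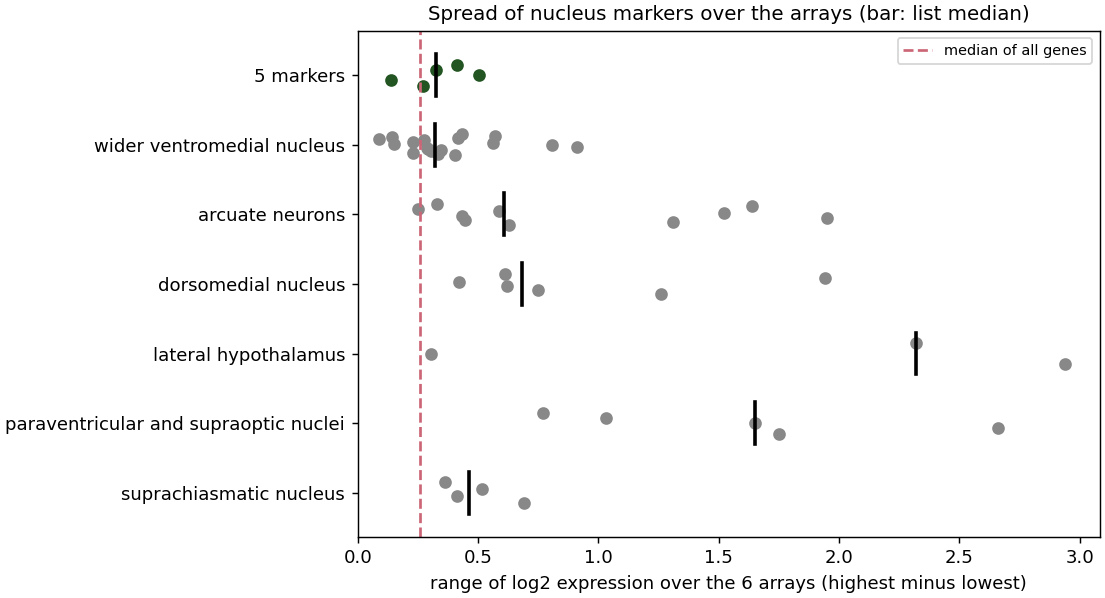
Range over the 6 arrays (horizontal axis, highest minus lowest log2 value) of the main probe set of each gene, 1 point per gene and 1 row per nucleus, with a bar at each median and a dashed line at the median of all genes, 0.26. The 5 markers lie between 0.138 and 0.505, while Hcrt in the lateral hypothalamus row reaches 2.94.

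Other genes known from ventromedial neurons lay slightly lower in POMCDicerKO on average, and none passed the test. Whether these genes are particular to the ventromedial nucleus in this tissue was not tested, and all 10 arcuate genes measured were also lower. Of 20 listed genes 18 were measured, with 0 past the adjusted threshold in either direction. Of these 14 were lower and 4 higher, with a median of -0.085, beside 55.1% lower and a median of -0.01 over all genes. At an unadjusted p under 0.05 there were 3, all lower, against 2.44% of all probe sets in either direction. The groups did not overlap in 2 of the 18, against 6.36% of all probe sets. Averaged over the list, controls stood at -0.01, -0.01 and 0.02 and POMCDicerKO arrays at -0.05, -0.08 and -0.16. With any single array left out, between 12 and 15 of the 18 were lower and the median lay between -0.093 and -0.051, the latter without POMCDicerKO 2.

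The 4 genes of that list with the smallest p were Crhr2, Lmo3, Vgll2 and Foxp2. Crhr2, a receptor for urocortins, read 5.80, 5.91 and 5.81 in controls and 5.73, 5.59 and 5.56 in POMCDicerKO, below the array medians of 6.02 to 6.05. Its groups did not overlap, with a difference of -0.21 and a standard error of 0.0728 (limma adjusted p = 1). Vgll2, a transcription cofactor, read 6.89, 6.79 and 7.08 in controls and 6.73, 6.64 and 6.76 in POMCDicerKO, also without overlap. Its difference was -0.208 with a standard error of 0.0874 (limma adjusted p = 1), and for Crhr2 and Vgll2 alike the exact permutation p (two-sided) was 0.1, the smallest that 3 against 3 samples can give. Lmo3, a LIM-domain transcription cofactor, was at -0.276 and Foxp2, a forkhead transcription factor, at -0.29, with overlapping groups. Foxp2 was at -0.147 without POMCDicerKO 3, Lmo3 at -0.181 without control 3 and Vgll2 at -0.13 without control 3.

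Genes reported to depend on Nr5a1 in the ventromedial nucleus had a median of -0.029, with 0 of 8 past the threshold in either direction. They were 2 higher and 6 lower, and 5 of them also stand in the wider list. Vgll2 was the only 1 of the 8 without overlap, against 6.36% of all probe sets. The cannabinoid receptor Cnr1 was at 0.092, and at 0.003 without control 2. The adhesion protein Amigo2 was at -0.061, the guidance factor Sema3a at -0.032, and without control 3 they were at 0.01 and 0.019. Among 11 relatives, coregulators and steroidogenic partners of NR5A receptors, 5 were higher and 6 lower with a median of -0.013, and 0 passed.

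Partners of PACAP and of Nptx2 showed no called difference. Of 18 genes of the PACAP peptides, receptors and cyclic AMP signalling, 0 passed in either direction, 8 were higher and 10 lower, with a median of -0.009. The PACAP receptor Adcyap1r1, named for its role after its values were seen, read 11.02 to 11.12 in controls and 11.07 to 11.09 in POMCDicerKO, a difference of 0.003 with a standard error of 0.0609. The related peptide gene Vip was at 0.256 with a standard error of 0.264, from 9.78 to 10.81 in controls and from 10.16 to 10.64 in POMCDicerKO. The adenylyl cyclase gene Adcy5 was at -0.087 and Creb1, the cyclic AMP-responsive factor, at 0.169. Single arrays moved these values widely: Vip was at 0.065 without control 1 and 0.581 without control 2, Adcy5 at -0.027 without control 2, and Creb1 at 0.046 without POMCDicerKO 2 and 0.338 without POMCDicerKO 3. Of 6 pentraxin and AMPA receptor genes, 3 were higher and 3 lower with a median of -0.003, and 0 passed. Nptx1, a further secreted neuronal pentraxin, was at 0.103 (standard error 0.0901), and the AMPA receptor subunit gene Gria3 at 0.059. Nptx1 was at 0.04 without control 2, and Gria3 at 0.002 without POMCDicerKO 1.

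Relatives of Fezf1 and Sox14 were all lower on average, by small amounts. Of 5, 0 passed, and the median was -0.093. Fezf2, the forebrain paralogue of Fezf1, was at -0.237 (limma adjusted p = 1), and Sox21, the other SOX gene of the B2 group, was at -0.165. The mean of Fezf2, 4.86, lay below the array medians, and whether its transcript was detected was not tested. The groups of these 2 genes did not overlap, as at 6.36% of all probe sets. Fezf2 was at -0.132 without control 1 and Sox21 at -0.1 without control 2, where the median of the 5 was -0.008.

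The genes of the arcuate nucleus itself lay further below control than the ventromedial markers, but this difference between lists was not tested. Of 12 listed arcuate genes 10 were measured, and for Agrp and Kiss1 no probe set carried the symbol alone. The 10 arcuate genes had a median of -0.212, all 10 lower and 0 passed, beside 55.1% lower and a median of -0.01 over all genes. At an unadjusted limma p under 0.05 there were 2 of the 10, against 2.44% of all probe sets. The groups did not overlap in 2 of the 10, against 6.36% of all probe sets. The median was -0.128 without POMCDicerKO 1, where 8 of the 10 were lower, and -0.332 without POMCDicerKO 2, and 7 of the 10 were lower without control 2. Their average stood at -0.16, 0.22 and -0.06 in controls and -0.55, -0.07 and -0.26 in POMCDicerKO. Slc6a3 had the smallest p of the list and groups without overlap. Its difference was -0.365 with a standard error of 0.0839, and from -0.412 to -0.293 with single arrays left out. Pomc itself (1433800_a_at) read 9.94, 10.87 and 9.76 in controls and 9.35, 9.71 and 9.43 in POMCDicerKO, a difference of -0.694 that did not pass (limma adjusted p = 1) and was -0.352 without control 2. The other Pomc probe set, 1455858_x_at, had overlapping groups and did not pass either. Its difference was -0.665 with a standard error of 0.216, and -0.457 without control 2. Dicer1 differed by 0.018 with a standard error of 0.0682 (1460571_at) and by 0.09 with a standard error of 0.0964 (1427941_at). Neither the part of Dicer1 these probe sets read nor the share of Pomc-expressing cells was analysed. The Dicer1 values therefore do not check the genotype labels. General neuronal genes stood between -0.08 and 0.05 in controls and between -0.02 and 0.10 in POMCDicerKO.

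Myelin and meningeal transcripts differed widely between the arrays on which the ventromedial genes were read. The 8 myelin genes, all 8 higher, stood between -0.16 and 0.13 in controls and between 0.11 and 0.78 in POMCDicerKO. The 9 meningeal and fibroblast genes, all 9 lower, stood at 0.43, 0.50 and -0.94 in controls and between -1.42 and -0.68 in POMCDicerKO, so controls 1 and 2 stood apart from the other 4 arrays. In neither list did a gene pass the adjusted threshold. At an unadjusted limma p under 0.05 there were 5 of the 8 myelin genes and 5 of the 9 meningeal genes, against 2.44% of all probe sets. A further setting rests on 1 control, with control 3 alone set against the POMCDicerKO arrays and taken by limma to have their spread. There 13 of the 18 wider ventromedial genes were lower with a median of -0.082, and the 5 markers had a median of -0.14. Over all genes 9065 of 18193 were lower in it, with a median of 0.0. In that setting 5 of the 9 meningeal genes were higher and 4 lower, with a median of 0.03, against -0.836 over all 6 arrays, and the 8 myelin genes had a median of 0.455, against 0.522. The part of these other cells in the ventromedial values was not tested.

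**Figure D4:**
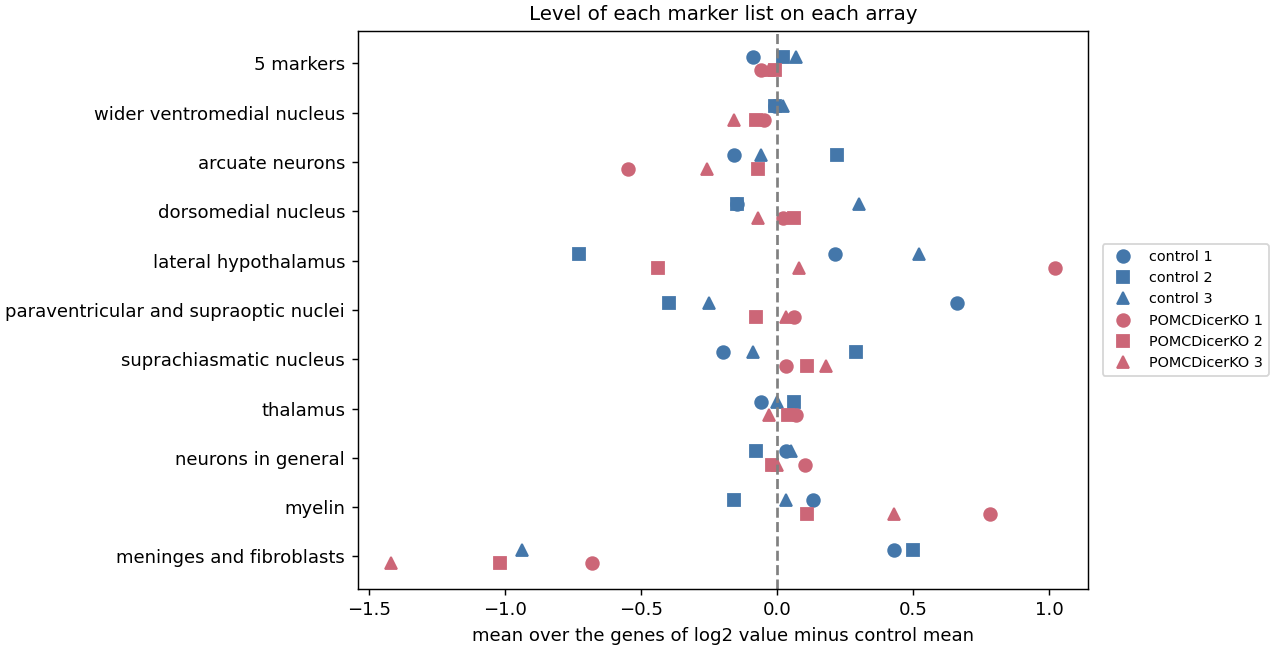
Mean over the genes of each list of the log2 value minus the gene's control mean (horizontal axis), 1 point per array, blue for controls and red for POMCDicerKO, with circles, squares and triangles for replicates 1, 2 and 3. The 5 markers lie within -0.09 and 0.07 on all arrays, whereas meningeal genes spread from -1.42 to 0.50.

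The genes whose array pattern was most like a marker were taken for markers with an SD over the 6 arrays above 0.15, which were Sox14 and Nptx2. Likeness was the root mean square difference of the values, each gene centred on its own mean, over 6 arrays and 11741 or 11742 genes with a mean of at least 6. For Sox14 (SD 0.153) these were Armc9, Bag4 and Plk4, at 0.0282, 0.0421 and 0.0431. For Nptx2 (SD 0.185) they were Stox1, Adgrv1 and Sfmbt2, at 0.0332, 0.037 and 0.039. With so many genes and 6 arrays, close patterns may be found for any gene, which was not tested.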

How the data were processed

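The authors deposited log2 values of every probe set on every array, made with RMA and the affy package per the submitters' processing notes, with no version given. RMA normalises by quantiles, so differences shared by most transcripts were removed. Control probe sets (64) were left out, 932 probe sets with several symbols and 9160 unlisted ones were unnamed, and unused sample columns numbered 0. Symbols were updated by Entrez identifier in RefSeq's GRCm38.p6 table, which served for names and chromosomes only. Groups came from the sample titles. No read depth exists for arrays, and their number limits the precision. No batch was named in the labels, so none was tested.

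All probe sets were fitted with limma 3.58.1 in R 4.3.3 (lmFit, eBayes), adjusted by Benjamini-Hochberg at 0.05, after a test on simulated data. Lists were described with 1 main probe set per gene and no set test. Named from other lists were up to 4 genes with the smallest p. The members and lists were chosen with earlier results of these data known. Alternatives were centring, further quantile normalisation, level filters, a trended robust prior, array weights, a replicate block, averaged probe sets and leaving out arrays.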

Additional observations from a re-analysis of the deposited data

How the results depend on the processing

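No member probe set passed the threshold under any alternative run, and every adjusted p of a member was 1. Over all probe sets the count of 0 (1098 at an unadjusted p under 0.05) became 1 with a trended robust prior, 1 without controls 1 and 2 (an alternative chosen after seeing the data), and 0 to 2 on leaving out each array in turn (control 1 left out gave 1, control 3 gave 2). The replicate numbers were not taken to pair the arrays: deviations of same-numbered arrays correlated at 0.13, 0.08 and 0.12 over all probe sets, so that 1 of 3 pairs lay under 0.1. This is a close call, since over probe sets with a mean of at least 6 they were 0.20, 0.12 and 0.20, and in either case each array correlated best with its own number. With the replicate block 0 probe sets passed, 1396 had an unadjusted p under 0.05, and Nr5a1 1418315_at stood at -0.034 with an unadjusted limma p of 0.629. The smallest unadjusted block p of a member was 0.0748, at Adcyap1 1441778_at (-0.191), which was lower in POMCDicerKO at each of the 3 numbers, while Fezf1 was higher at each. Signs close to 0 were not settled. With single arrays left out, the difference ran from -0.128 to 0.057 for Nr5a1 1418315_at, -0.074 to 0.064 for 1421730_at, -0.168 to 0.036 for Sox14 and -0.065 to 0.07 for Adcyap1 1423427_at, which was -0.003 with arrays centred. Without controls 1 and 2, Nptx2 1449960_at was at 0.014 and Adcyap1 1441778_at at 0.163. The median of the 5 genes ran from -0.126 to 0.018 with single arrays left out and was -0.14 without controls 1 and 2. With all probe sets of a gene averaged, the median was -0.086, against -0.034 with main probe sets. Of 48 member differences refitted with single arrays left out, 39 kept their sign and 9 reversed. The level filters removed Sox14 and the lesser probe sets of Nr5a1 and Nptx2, which then have no value.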
